A study of Danio rerio with 9 samples.

Results

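BMAL1, CLOCK and NPAS2 are the transcriptional activators at the centre of the circadian clock, and the levels of 4 zebrafish genes that encode them are described here in 9 pools of 5-day-old larvae. The genes are the 2 rows with the symbol BMAL1 (ENSDARG00000006791 and ENSDARG00000035732), a row with the symbol CLOCK (ENSDARG00000011703) and npas2 (ENSDARG00000016536), out of 32520 genes in the expression table. They were selected by identifier with their levels in these pools already known, so their values are given as a description, with no p-value printed. Whether they met the criteria for a call is stated, and nothing is read from it. All 4 passed the filter on low values, a mean over the 9 pools of 1 TPM or more (TPM is a read count scaled for gene length and library total), which kept 19051 genes. Where a symbol stands for more than 1 row, the end of the Ensembl identifier is added to it: BMAL1-6791, BMAL1-35732, CLOCK-11703 and, for the CLOCK paralog outside the selection, CLOCK-3631.

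The study asked how sialylated milk oligosaccharides, sugars of milk that carry sialic acid, act on larval zebrafish, and whether the human and bovine fractions differ in this. Whole larvae of the wild-type AB strain were compared in 3 groups of 3 pools each. SBMO larvae had received a yolk injection of 4.6 nL of bovine oligosaccharides at 100 mmol/L when the embryos were 4.7 h old, SHMO larvae had received the human fraction at the same volume, concentration and time, and both were dissolved in Danieau saline. Ctrl larvae were not injected, and the 9 libraries include no pool injected with saline alone, so the injection and the sugars cannot be told apart in a comparison with Ctrl. Each library was made from a pool of larvae, and a p-value sets the difference between groups against the spread between pools. Neither the hour of the day at which each pool was collected nor the lighting of the larvae is stated in the sources used here. For clock genes the hour of collection and the treatment therefore cannot be told apart.

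In vertebrates BMAL1 pairs with CLOCK or with its paralog NPAS2, and the pair binds E-box elements and switches on the Period and Cryptochrome genes, whose proteins then block the pair. A second loop sets the level of Bmal1 itself: the nuclear receptors Rev-erb (NR1D genes) repress it and the Ror receptors activate it through the same response element. Zebrafish keep extra copies of most of these genes, and clocks run in nearly all of their tissues and answer directly to light.

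Because TPM is scaled per gene length, levels can be set side by side between genes, while the number of reads behind a value is not kept. Between 24452 and 25305 genes were above 0 in each pool, and a gene's SD over the 3 pools had a median of 0.222 log2 units in SBMO, 0.21 in SHMO and 0.233 in Ctrl. On the first principal component of all genes tested, SHMO pool 1 lay at 21.1, apart from SHMO pools 2 and 3 at -36 and -34.1. The SBMO pools spanned -58.1 to -33.4 and the Ctrl pools 46.4 to 79.1. For the clock activators described next, SHMO pool 1 deviated from its group mean by -0.27 to 0.15 log2 units. Without it their log2 fold changes (log2(FC)) in SHMO against Ctrl were -1.50 for BMAL1-35732, -1.19 for BMAL1-6791, -1.28 for CLOCK-11703 and -1.38 for npas2, close to the values with all pools given with each gene.

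All 4 activators were lowest in the larvae injected with human oligosaccharides. Their summed level averaged 57.0 ± 7.97 TPM in SBMO, 21.9 ± 2.38 TPM in SHMO and 56.9 ± 10.6 TPM in Ctrl pools (SD, n = 3 each). For every one of the 4 genes, each SHMO pool lay below every SBMO pool and every Ctrl pool, an arrangement that 674 of all genes tested (3.54%) had. These values were known when the genes were selected, and nothing is read from the count.

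**Figure D1:**
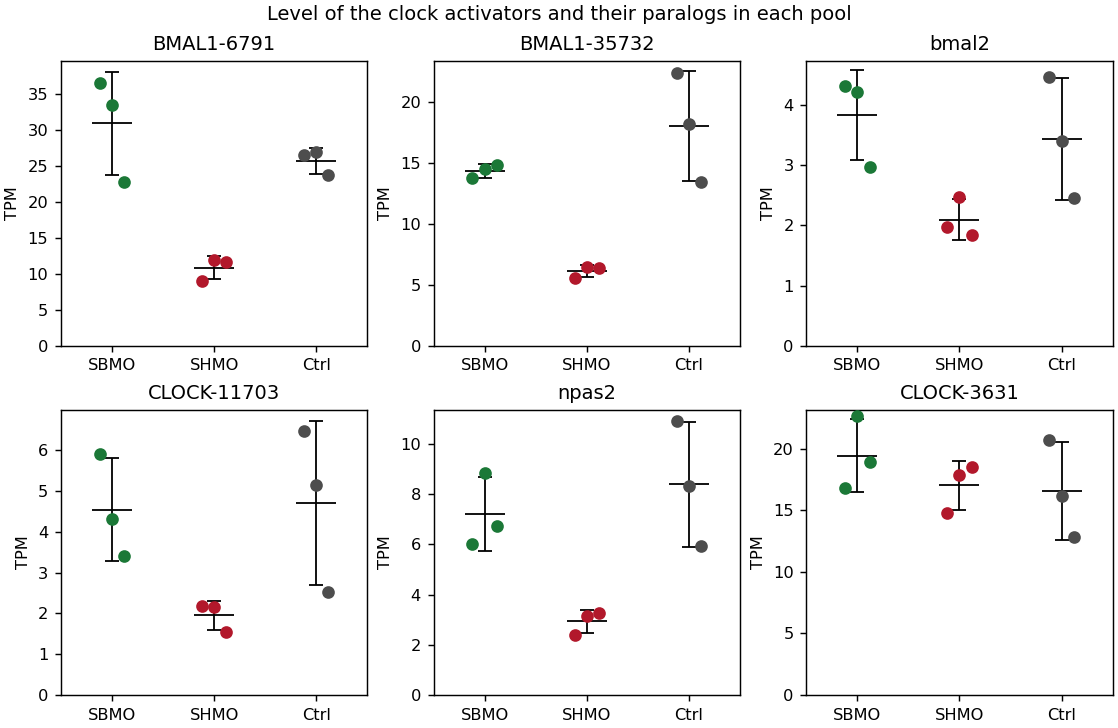
Level in TPM (vertical axes, from 0) of the 4 clock activators and of their paralogs bmal2 and CLOCK-3631 in SBMO, SHMO and Ctrl larvae. Points are pools 1 to 3 from left to right, the long bar is the mean and the capped bar the SD of 3 pools. The 3 SHMO points lie lowest in the panels of the 4 activators, while for CLOCK-3631 the 3 groups overlap.

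BMAL1-6791, a copy of BMAL1, which pairs with CLOCK or NPAS2, was the most abundant of the 4. Its level was 36.45, 33.52 and 22.83 TPM in SBMO pools, 9.02, 11.86 and 11.63 TPM in SHMO pools, and 26.58, 26.97 and 23.67 TPM in Ctrl pools. The SHMO pools formed a low set of their own, and SBMO pool 3 lay below all the Ctrl pools while the other SBMO pools lay above them. The difference was -1.32 ± 0.205 on the log2(FC) scale in SHMO against Ctrl (SE), a fall of 59.8%, and 1.57 ± 0.205 in SBMO against SHMO. In SBMO against Ctrl it was 0.26 ± 0.205.

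BMAL1-35732, the second copy, had 13.73, 14.48 and 14.85 TPM in SBMO pools, 5.58, 6.50 and 6.41 TPM in SHMO pools, and 22.40, 18.21 and 13.41 TPM in Ctrl pools. The SBMO pools were close to each other and fell inside the range of the Ctrl pools, which were widely spread. The log2(FC) was -1.57 ± 0.177 in SHMO against Ctrl (SE), a fall of 66.3% and the steepest of the 4. It was 1.29 ± 0.177 in SBMO against SHMO and -0.28 ± 0.177 in SBMO against Ctrl.

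The 2 copies varied by different amounts within the groups. The coefficient of variation of BMAL1-35732 was 3.98% in SBMO, 8.23% in SHMO and 25.0% in Ctrl pools, and that of BMAL1-6791 was 23.2% in SBMO, 14.6% in SHMO and 7.01% in Ctrl pools. BMAL1-6791 supplied 60.6% to 72.6% of the BMAL1 TPM in SBMO pools, 61.8% to 64.6% in SHMO pools and 54.3% to 63.8% in Ctrl pools. These shares overlapped between the groups, so the 2 copies were low together in SHMO larvae.

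CLOCK-11703 had the lowest level of the 4. CLOCK is the partner of BMAL1 in most tissues. The values were 5.90, 4.32 and 3.42 TPM in SBMO pools, 2.17, 2.15 and 1.55 TPM in SHMO pools, and 6.48, 5.14 and 2.52 TPM in Ctrl pools. The gap between groups was narrow here: Ctrl pool 3 stood only a little above the highest SHMO pool. The log2(FC) was -1.21 ± 0.32 in SHMO against Ctrl (SE), a fall of 56.6%, and ran between -1.59 and -0.99 when each pool was left out in turn. It was 1.24 ± 0.32 in SBMO against SHMO and 0.03 ± 0.32 in SBMO against Ctrl.

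The gene npas2, which encodes the alternative partner of BMAL1, known in mammals for its expression in the forebrain, had 6.01, 8.85 and 6.74 TPM in SBMO pools, 2.41, 3.13 and 3.26 TPM in SHMO pools, and 10.93, 8.34 and 5.92 TPM in Ctrl pools. Again the SBMO and Ctrl pools were mixed and the SHMO pools lay below both. The log2(FC) was -1.52 ± 0.244 in SHMO against Ctrl (SE), a fall of 65.1%, 1.34 ± 0.244 in SBMO against SHMO and -0.18 ± 0.244 in SBMO against Ctrl.

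The order of the mean levels was BMAL1-6791, BMAL1-35732, npas2 and CLOCK-11703 in each of the 3 groups. npas2 and CLOCK-11703 were close neighbours in this order. Their pools overlapped in Ctrl (5.92 to 10.93 and 2.52 to 6.48 TPM), and in SBMO the lowest npas2 pool, at 6.01 TPM, stood just above the highest CLOCK-11703 pool, at 5.90 TPM. All 4 genes met the criteria for a call in SHMO against Ctrl, an adjusted p of at most 0.05 (limma, Benjamini-Hochberg over all genes tested) and an absolute log2(FC) of 0.58 or more. Over all genes 5.32% were called lower and 3.58% higher in that comparison, and in 13.4% all SHMO pools lay below all Ctrl pools. In SBMO against SHMO the BMAL1 copies and npas2 met the criteria and CLOCK-11703 did not. Over all genes 1.83% were called higher and 2.74% lower there, and in 9.83% all SBMO pools lay above all SHMO pools. In SBMO against Ctrl 0 of the 4 met them, where 8.31% of all genes were called higher, 11.5% lower, and in 40.3% the pools of the groups did not overlap. The rule of selection used these contrasts, and nothing is read from the counts.

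For these 4 genes the SHMO pools overlapped neither other group, so leaving out a pool could not change the sign in the comparisons with SHMO. Each pool was left out in turn to give the range of the values. Over the 4 genes the log2(FC) then ran from -1.76 to -0.99 in SHMO against Ctrl and from 1.06 to 1.79 in SBMO against SHMO. In SBMO against Ctrl the CLOCK-11703 value ran from -0.35 to 0.25 and crossed 0. In whole larvae, fewer cells that express these genes and less of their RNA per cell cannot be told apart.

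The remaining paralogs of the activators behaved differently from each other. The first, bmal2, a paralog of BMAL1 that also pairs with CLOCK, had 4.32, 4.22 and 2.97 TPM in SBMO pools, 1.97, 2.48 and 1.84 TPM in SHMO pools, and 4.47, 3.40 and 2.45 TPM in Ctrl pools. Its SHMO pools were below all SBMO pools, and SHMO pool 2 lay just above Ctrl pool 3. It was not called: the log2(FC) was -0.72 in SHMO against Ctrl (adjusted p = 0.0843, limma) and 0.92 in SBMO against SHMO (adjusted p = 0.061). The second comparison passed the test under quantile normalization (adjusted p = 0.0499) and with a replicate block (adjusted p = 0.0495). It also passed without SBMO pool 3 (adjusted p = 0.0344) or Ctrl pool 3 (adjusted p = 0.0447).

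CLOCK-3631, the second CLOCK copy and the more abundant of the pair, had 16.77, 22.61 and 18.91 TPM in SBMO pools, 14.77, 17.82 and 18.50 TPM in SHMO pools, and 20.67, 16.14 and 12.78 TPM in Ctrl pools. The 3 groups overlapped. The log2(FC) was -0.00 ± 0.2 in SHMO against Ctrl (SE, adjusted p = 0.992, limma) and 0.27 ± 0.2 in SBMO against SHMO (adjusted p = 0.463). CLOCK-11703 made up 15.3% to 26.0% of the TPM of both CLOCK copies in SBMO pools, 7.73% to 12.8% in SHMO pools and 16.5% to 24.2% in Ctrl pools.

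The balance between BMAL1 and its partners was also set side by side within the pools, as a description. Both BMAL1 copies together had 37.7 to 50.2 TPM in SBMO, 14.6 to 18.4 TPM in SHMO and 37.1 to 49.0 TPM in Ctrl pools. Their possible partners, both CLOCK copies and npas2, had 28.7 to 35.8 TPM in SBMO, 19.3 to 23.3 TPM in SHMO and 21.2 to 38.1 TPM in Ctrl pools. The partner sums of SHMO and Ctrl pools overlapped, while the BMAL1 sums did not. The ratio of BMAL1 over partners was 1.30 to 1.75 in SBMO, 0.755 to 0.795 in SHMO and 1.29 to 1.75 in Ctrl pools, so that BMAL1 mRNA exceeded that of its partners in all 6 SBMO and Ctrl pools and fell short of it in the 3 SHMO pools.

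**Figure D2:**
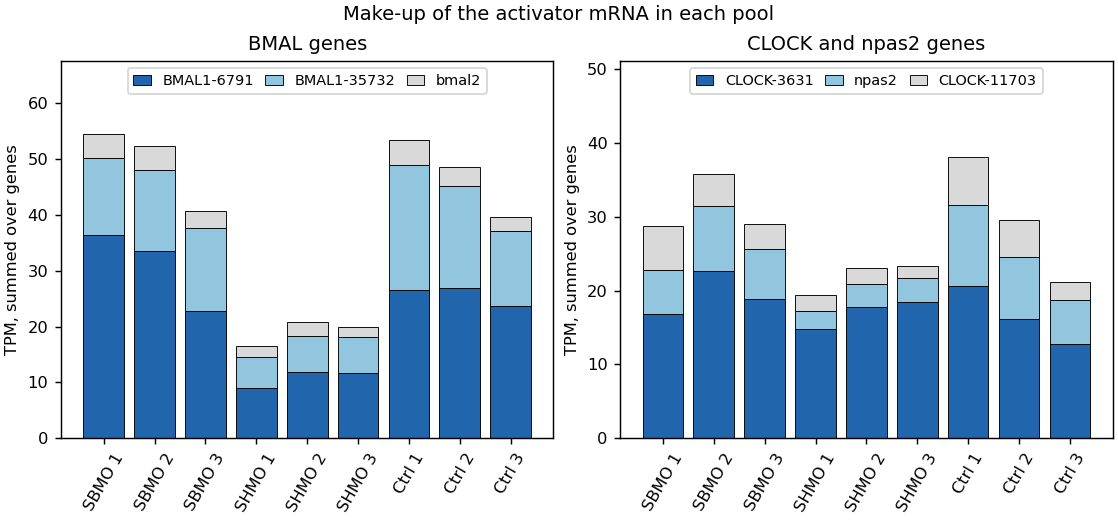
Summed TPM (vertical axes, from 0) of the BMAL genes (left) and of the CLOCK and npas2 genes (right) in each of the 9 pools, stacked by gene. The BMAL bars of the SHMO pools reach 16.6 to 20.8 TPM, against 39.5 to 53.4 TPM in Ctrl pools, while CLOCK-3631, the lowest segment on the right, is of similar height in the 3 groups.

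Deviations of the single pools from their group means were set side by side on the log2 scale, over 9 pools that share libraries, as a description. npas2 and CLOCK-3631 deviated together, with a Pearson correlation of 0.998, and among 19050 genes CLOCK-3631 was the closest to npas2 in this measure. Many genes were as close to the other activators: for BMAL1-35732, npas2 (0.906) ranked 664 and BMAL1-6791 (0.281) ranked 7228 of 19050, and for CLOCK-11703, bmal2 (0.879) ranked 134. The pair of npas2 and CLOCK-3631 was picked out after its values were seen. The ratio of npas2 over CLOCK-3631 was 0.358, 0.391 and 0.356 in SBMO pools, 0.163, 0.176 and 0.176 in SHMO pools, and 0.529, 0.517 and 0.463 in Ctrl pools. Measured against CLOCK-3631, npas2 thus lay lower in all SBMO pools than in all Ctrl pools, although the TPM of npas2 overlapped between these groups. BMAL1-35732 over CLOCK-3631 showed the same arrangement, at 0.64 to 0.819 in SBMO, 0.346 to 0.378 in SHMO and 1.05 to 1.13 in Ctrl pools. CLOCK-3631 itself had a log2(FC) of 0.27 ± 0.2 in SBMO against Ctrl, which lowers both ratios in SBMO. Both were chosen with the values known, and how many ratios of other genes part these groups was not counted. Of single genes, 40.3% had no overlap between SBMO and Ctrl pools, and nothing is read from the 2 ratios.

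Ctrl pool 3 was the lowest Ctrl pool for all 4 activators. Its deviation was largest for CLOCK-11703, at -0.76 log2 units, then npas2 at -0.44, BMAL1-35732 at -0.37 and BMAL1-6791 at -0.10. SBMO pool 3 was the lowest SBMO pool for BMAL1-6791 (-0.44) and CLOCK-11703 (-0.40) but not for BMAL1-35732 (0.01) or npas2 (-0.11).

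The other genes of the clock were taken from 5 lists that exclude the 4 activators. They are activator paralogs, repressors, the Rev-erb and Ror loop, PAR bZIP and Nfil3 factors, and the kinases and ubiquitin ligases of clock proteins with the deacetylase SIRT1. The 53 symbols listed matched 51 rows, of which 48 passed the filter. A symbol could match more than 1 row, and some symbols had no row of their own. In SHMO against Ctrl 16 of the 48 rose and 6 fell, in SBMO against Ctrl 3 rose and 1 fell, and in SBMO against SHMO 7 rose and 13 fell (limma, with the criteria given above). The 45.8% called in SHMO against Ctrl compares with 8.9% of all genes tested, and the 8.33% in SBMO against Ctrl with 19.8%. For SBMO against SHMO the shares were 41.7% and 4.57%. The 4 calls in SBMO against Ctrl became 2 without SBMO pool 2 or Ctrl pool 3 and 7 without SBMO pool 3. The comparisons with Ctrl share the Ctrl pools. The lists were drawn up with results of these data known.

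**Figure D3:**
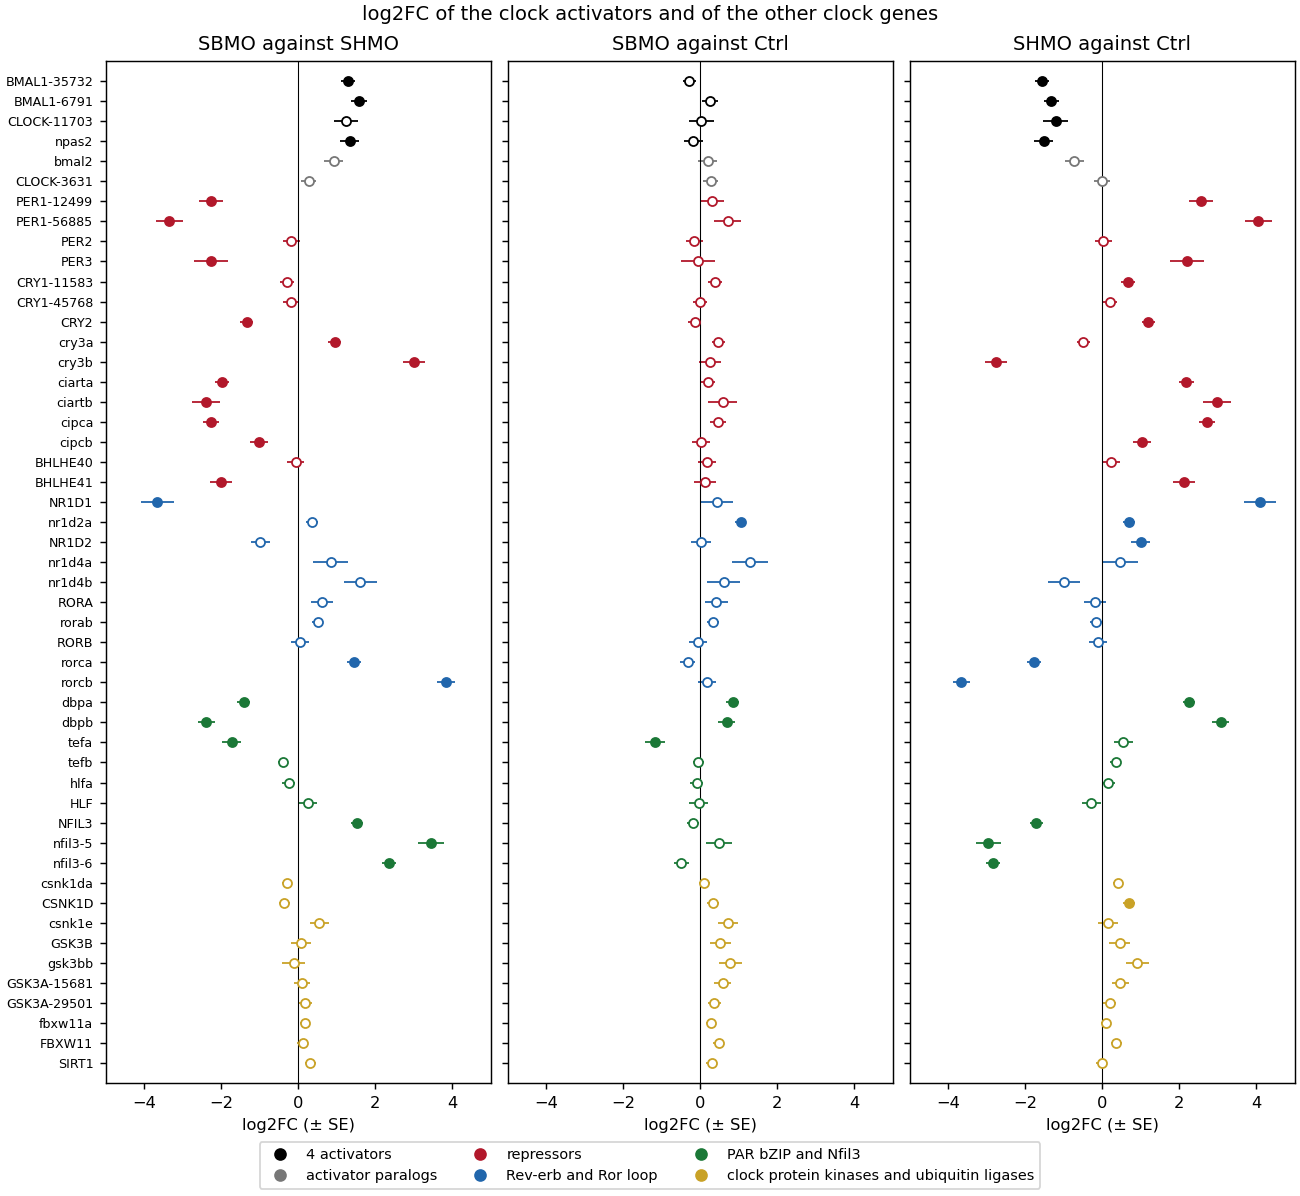
log2(FC) with its SE (horizontal axes) of the 4 activators and 46 of the 48 other clock genes in SBMO against SHMO (left), SBMO against Ctrl (middle) and SHMO against Ctrl (right). Filled points met both criteria for a call and open points did not. On the right the 4 activators lie between -1.57 and -1.21, most filled repressor points lie above 0, and in the middle panel 4 points outside the activators are filled.

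The genes of the repressor list moved mostly the opposite way. Most of them encode inhibitors of the activators, while cry3a and cry3b are listed only as cryptochromes. Of 15 tested, 10 rose and 1 fell in SHMO against Ctrl with a median log2(FC) of 1.20, against 0.04 over all genes. In SBMO against SHMO 2 rose and 9 fell with a median of -1.34, against 0.02 over all genes. The share called was 73.3% in each of these comparisons, where 8.9% and 4.57% of all genes tested were called. In SBMO against Ctrl 0 of 15 were called by limma with a median of 0.20, and 2 had an unadjusted p under 0.05. Over all genes 19.8% were called in SBMO against Ctrl. Under quantile normalization PER1-56885 and cipca were called there (adjusted p = 0.0474 and 0.0242), and so were cipca without SBMO pool 1 (adjusted p = 0.0407) and cry3a without SBMO pool 3 (adjusted p = 0.0272). PER1-56885, a Period gene, had 0.76, 0.64 and 1.72 TPM in SBMO, 9.51, 12.36 and 12.03 TPM in SHMO and 0.62, 0.71 and 0.37 TPM in Ctrl pools. It passed the filter on low values only through the SHMO pools, so its call among the 10 (log2(FC) 4.06 in SHMO against Ctrl, adjusted p = 0.00035, limma) is not independent of that filter, and it was called with no filter as well. The second Period 1 copy, PER1-12499, rose by a log2(FC) of 2.57 (adjusted p = 0.00187) and PER3 by 2.21 (adjusted p = 0.0171), while PER2, which light induces in zebrafish, had a log2(FC) of 0.03 (adjusted p = 0.941). The PER3 call in SHMO against Ctrl was lost without SHMO pool 2, SHMO pool 3 or Ctrl pool 3.

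Among the cryptochromes CRY2 rose in SHMO against Ctrl by 1.20 (adjusted p = 0.00427, limma) and CRY1-11583 by 0.67 (adjusted p = 0.0425). The CRY1-11583 call was lost with a replicate block (adjusted p = 0.063) and without SBMO pool 3, SHMO pool 2 or 3 or any Ctrl pool. The other CRY1 row, CRY1-45768, was more abundant, with a Ctrl mean of 49.8 TPM against 8.67 TPM. It had a log2(FC) of 0.19 in SHMO against Ctrl (adjusted p = 0.525, limma) and was not called. The single repressor-list gene that fell was cry3b, a member of the same photolyase-related family, with 129.29, 122.66 and 67.17 TPM in SBMO, 9.66, 15.44 and 15.92 TPM in SHMO and 97.96, 87.01 and 76.62 TPM in Ctrl pools. Its SHMO pools lay below all others, the arrangement of the 4 activators, and the log2(FC) was -2.76 in SHMO against Ctrl (adjusted p = 0.000847) and 3.01 in SBMO against SHMO (adjusted p = 0.00143). Its relative cry3a had -0.49 in SHMO against Ctrl (adjusted p = 0.0932) and rose by 0.95 in SBMO against SHMO (adjusted p = 0.0158). That call was lost without SBMO pool 2 or SHMO pool 1, where the log2(FC) was 0.85 and 0.84, and with only the groups compared in the model (0.96, adjusted p = 0.0542). Outside this family, several inhibitors of the CLOCK and BMAL1 pair rose in SHMO against Ctrl. These were ciarta by 2.19 and ciartb by 2.99 (adjusted p = 0.00035 and 0.00215) and cipca by 2.73 and cipcb by 1.03 (adjusted p = 0.000189 and 0.0266). The E-box competitor BHLHE41 rose by 2.13 (adjusted p = 0.00316), while its relative BHLHE40 had 0.24 (adjusted p = 0.5, limma) and was not called. The cipcb call was lost with a replicate block (adjusted p = 0.056) and without SHMO pool 2 or 3 or Ctrl pool 2 or 3.

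The Rev-erb and Ror genes, which act on the BMAL1 promoter in mammals, did not all move. Of 10 tested, 3 rose and 2 fell in SHMO against Ctrl, 1 rose in SBMO against Ctrl, and 2 rose and 1 fell in SBMO against SHMO. The shares called were 50.0%, 10.0% and 30.0%, against 8.9%, 19.8% and 4.57% of all genes tested. NR1D1, the Rev-erb alpha repressor of BMAL1, had 2.45, 4.06 and 11.09 TPM in SBMO, 56.65, 69.17 and 72.38 TPM in SHMO and 4.08, 3.21 and 3.46 TPM in Ctrl pools. It was 17.1-fold higher in SHMO than in Ctrl (log2(FC) 4.10, adjusted p = 0.000894, limma) and fell by 3.66 on the log2 scale in SBMO against SHMO (adjusted p = 0.00277). NR1D2, the related Rev-erb beta, rose in SHMO against Ctrl by 1.00 (adjusted p = 0.0355). In SBMO against SHMO NR1D2 had a log2(FC) of -0.99 (adjusted p = 0.0534, limma) and was not called. It was called there without further scaling (adjusted p = 0.0422), under quantile normalization (0.0481), with a replicate block (0.0441) and without SBMO pool 3 (0.00236). The third called Rev-erb gene, nr1d2a, rose by 0.69 in SHMO against Ctrl (adjusted p = 0.0236) and by 1.05 in SBMO against Ctrl (adjusted p = 0.00508), so it was high in both injected groups. The calls of NR1D2 and nr1d2a in SHMO against Ctrl were lost without SHMO pool 2 or 3 or any Ctrl pool.

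The remaining Rev-erb family genes were not called. nr1d4a had a log2(FC) of 0.46 in SHMO against Ctrl (adjusted p = 0.534, limma), and nr1d4b had -0.99 in SHMO against Ctrl (adjusted p = 0.154) and 1.61 in SBMO against SHMO (adjusted p = 0.0617). Of the 5 Ror genes, which activate BMAL1, 2 fell in SHMO against Ctrl. rorcb, a Ror gamma gene, had 39.98, 44.36 and 24.65 TPM in SBMO, 2.19, 2.76 and 2.66 TPM in SHMO and 35.41, 32.01 and 28.13 TPM in Ctrl pools, a log2(FC) of -3.66 in SHMO against Ctrl (adjusted p = 0.000164, limma) and 3.83 in SBMO against SHMO (adjusted p = 0.000196). rorca, its paralog, had 51.48, 64.97 and 51.64 TPM in SBMO, 21.10, 24.27 and 19.71 TPM in SHMO and 92.42, 66.65 and 57.38 TPM in Ctrl pools, a log2(FC) of -1.77 in SHMO against Ctrl (adjusted p = 0.00102). The SHMO pools of both genes lay below all others. RORA, rorab and RORB had a log2(FC) between -0.19 and -0.10 in SHMO against Ctrl and were not called.

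NR1D1 exceeded the BMAL1 copies only in the SHMO pools. NR1D1 over the sum of both BMAL1 copies was 0.0488, 0.0846 and 0.294 in SBMO, 3.88, 3.77 and 4.01 in SHMO and 0.0833, 0.0710 and 0.0933 in Ctrl pools. The summed activators over the summed Period genes (both PER1 copies, PER2 and PER3) were 1.95, 1.76 and 0.916 in SBMO, 0.235, 0.226 and 0.228 in SHMO and 1.26, 1.35 and 1.59 in Ctrl pools. The SHMO pools were close to each other in both ratios, and SBMO pool 3 lay nearest to them.

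**Figure D4:**
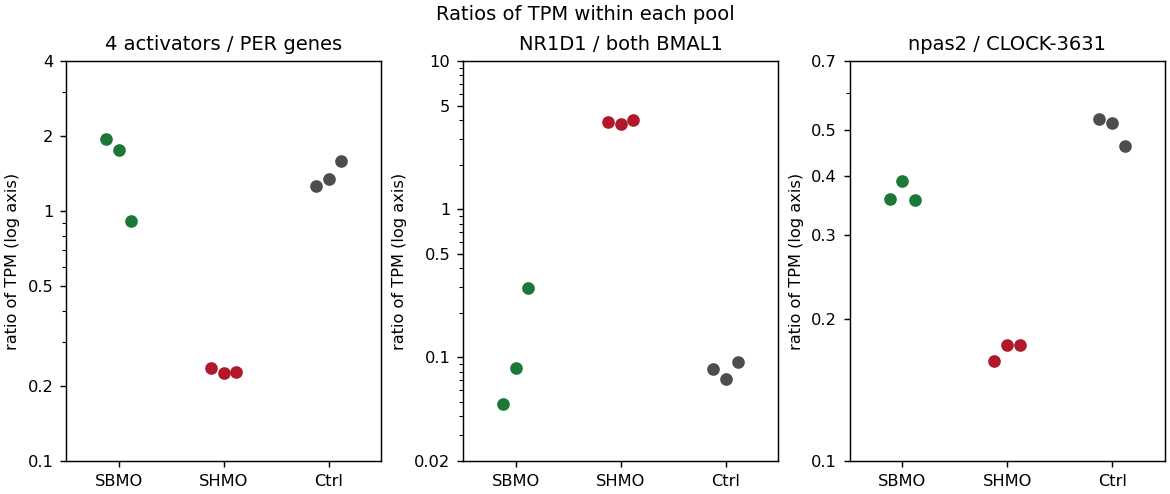
Ratios of TPM within each pool (vertical axes, log scale): the 4 activators over the 4 Period genes (left), NR1D1 over both BMAL1 copies (middle) and npas2 over CLOCK-3631 (right). Points are pools 1 to 3 from left to right. SHMO pools lie at 0.226 to 0.235 on the left and at 3.77 to 4.01 in the middle, and on the right the 3 groups lie apart.

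The D-box factors are the output arm, in which the PAR bZIP activators are E-box targets and Nfil3 competes with them for the same element. Of 9 tested, 2 rose and 3 fell in SHMO against Ctrl, 2 rose and 1 fell in SBMO against Ctrl, and 3 rose and 3 fell in SBMO against SHMO. The shares called were 55.6%, 33.3% and 66.7%, against 8.9%, 19.8% and 4.57% of all genes tested. dbpa rose by 2.26 and dbpb by 3.08 on the log2 scale in SHMO against Ctrl (adjusted p = 0.00018 each, limma). In SBMO against Ctrl both also rose, dbpa by 0.84 (adjusted p = 0.0112) and dbpb by 0.69 (adjusted p = 0.0493), the second a call that was lost under 6 of the 7 other settings and without 7 of the 9 single pools.

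tefa, a PAR bZIP factor, was the only called gene of these lists with SBMO pools below all others: 26.02, 27.11 and 54.83 TPM in SBMO, 120.03, 115.85 and 121.71 TPM in SHMO and 74.30, 68.76 and 91.66 TPM in Ctrl pools. Its log2(FC) was -1.18 in SBMO against Ctrl (adjusted p = 0.0145, limma) and -1.73 in SBMO against SHMO (adjusted p = 0.00704), and the first call was lost without SBMO pool 2 or Ctrl pool 3. The Nfil3 genes were low with the activators in SHMO pools. NFIL3 fell by 1.71, nfil3-5 by 2.96 and nfil3-6 by 2.84 in SHMO against Ctrl (adjusted p = 0.000614, 0.00131 and 0.000164).

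The list of kinases and ubiquitin ligases of clock proteins had 12 tested genes, among them SIRT1, a deacetylase of BMAL1. Of these only CSNK1D was called in SHMO against Ctrl (8.33%, against 8.9% of all genes tested). It was higher in SHMO than in Ctrl by 0.70 (adjusted p = 0.0226, limma) and no longer called without SHMO pool 2 or 3 or any Ctrl pool. In the other comparisons 0 were called by limma, where 5 (SBMO against Ctrl) and 1 (SBMO against SHMO) had an unadjusted p under 0.05. Over all genes 19.8% and 4.57% were called in these comparisons. As relatives of the activators in the same bHLH-PAS family that are not core clock genes, 17 genes such as arnt, ahr2 and hif1aa were counted. Of these 0 were called by limma in SHMO against Ctrl, with a median log2(FC) of 0.18 and 3 at an unadjusted p under 0.05, and 0 in SBMO against SHMO, with 4 at that p, where 8.9% and 4.57% of all genes were called. In SBMO against Ctrl 2 rose and 1 fell (17.6%, against 19.8% of all genes). With so few genes, nothing is read from these counts.

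**Figure D5:**
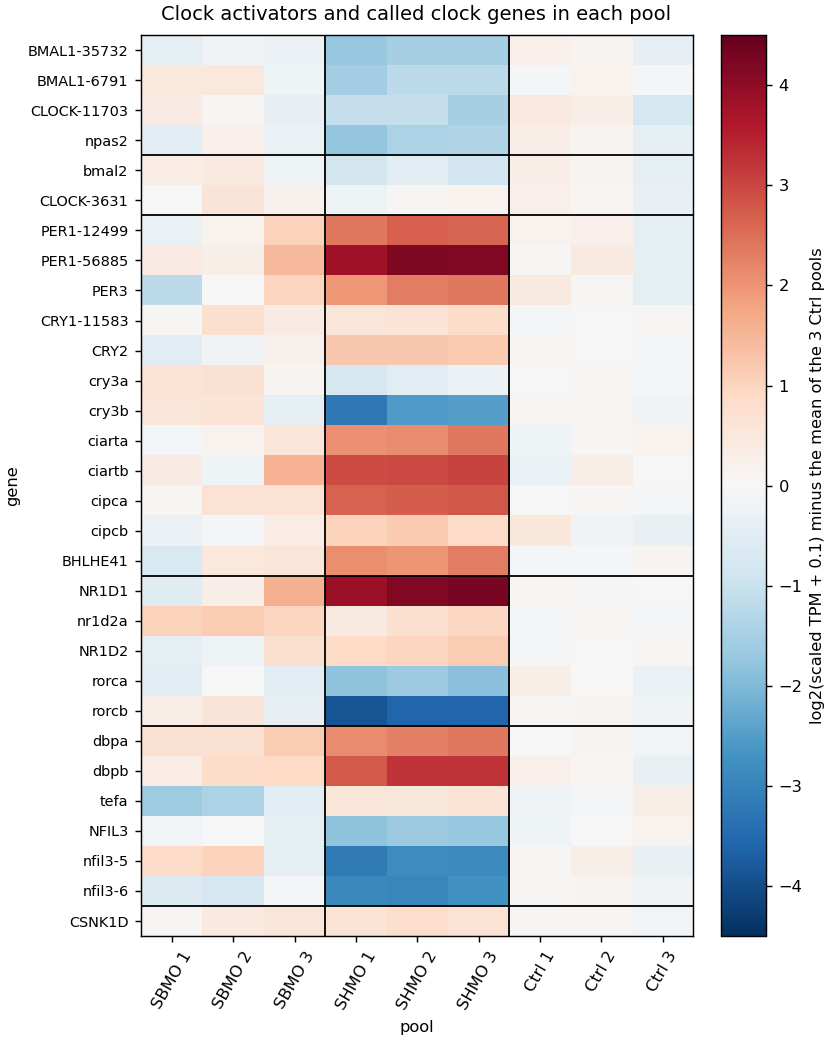
Colour scale of log2(scaled TPM + 0.1) minus the mean of the 3 Ctrl pools for the 4 activators, their paralogs and each called clock gene (rows) in the 9 pools (columns). Lines part the lists and the groups. The 3 SHMO columns resemble each other, with the activators, rorca, rorcb, cry3b and the Nfil3 genes blue and the Period and NR1D1 rows red, and SBMO 3 shows PER1-56885 and NR1D1 in pale red.

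The genes most like the activators were found by the Pearson correlation of log2 profiles over the 9 pools with the mean of the 4 centred activator profiles, as a description. The closest 6 of all genes tested were nbr1a (0.976), CACNA2D4 (0.976), TMEM175 (0.974), rorca (0.973), rorcb (0.973) and cry3b (0.970). Of these 6, 3 were from the clock lists, which held 48 of the 19051 genes tested. The lists and the activators were chosen with results of these data known, and nothing is read from this count. nbr1a encodes an autophagy receptor, CACNA2D4 an auxiliary calcium channel subunit used in the retina, and TMEM175 a lysosomal potassium channel. Most opposed were PHB2-17728, a prohibitin of the mitochondrial inner membrane (-0.992), the heat-shock chaperone gene hsp90aa1.1 (-0.985) and UQCRFS1, the Rieske subunit of respiratory complex III (-0.985). hsp90aa1.1 had 17.34, 15.04 and 32.22 TPM in SBMO, 188.72, 148.05 and 132.75 TPM in SHMO and 23.53, 18.78 and 34.45 TPM in Ctrl pools.

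The single genes had partly different neighbours. The 2 closest to BMAL1-6791 were cry4 and nfil3-5 (0.994 each), and the 2 closest to BMAL1-35732 were rorca (0.985) and lonrf1 (0.970). For npas2 they were rorca (0.975) and ATG9A (0.971), and for CLOCK-11703 si:ch73-103b11.2 (0.973) and soul4 (0.967). The 9 points of each correlation share the 3 groups, and part of each value is the low level in SHMO pools.

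Markers of cell types that could carry these genes were summed in each pool, and their part in the low activator levels was not tested. The neuron list (9 genes) had 1610 to 1870 TPM in SBMO, 1250 to 1650 TPM in SHMO and 936 to 1140 TPM in Ctrl pools. This sum was higher in SHMO than in Ctrl pools, while 0 of the 9 genes were called by limma in that comparison. There 5 had an unadjusted p under 0.05, and 8.9% of all genes were called. In SBMO against Ctrl 4 of the 9 were called, where 19.8% of all genes were. The photoreceptor list (11 genes) had 5480 to 6250 TPM in SBMO, 3910 to 5320 TPM in SHMO and 4260 to 5390 TPM in Ctrl pools. The muscle list (9 genes) had 23200 to 28800 TPM in SBMO, 24200 to 24800 TPM in SHMO and 20800 to 26800 TPM in Ctrl pools. SHMO and Ctrl pools overlapped in these 2 lists. The liver list (4 genes) had 1830 to 3960 TPM in SBMO, 5560 to 9540 TPM in SHMO and 5380 to 7700 TPM in Ctrl pools, and the erythrocyte list (3 genes) had 410 to 685 TPM in SBMO, 638 to 1050 TPM in SHMO and 719 to 1070 TPM in Ctrl pools. SHMO and Ctrl pools overlapped in these lists as well, while the liver sums of SBMO pools lay below all others. In SBMO against Ctrl 4 of 4 liver and 2 of 3 erythrocyte markers were called lower by limma, where 11.5% of all genes were. In SBMO against SHMO 2 liver markers and 1 erythrocyte marker were called lower, where 2.74% of all genes were. For SHMO against Ctrl the calls were 0 and 1, with 5.32% of all genes called lower. Nothing is read from counts of so few genes.

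The pineal gland, a clock organ of fish, was represented by 2 genes, aanat2 and ASMT, with summed levels of 5.69 to 6.90 TPM in SBMO, 3.56 to 4.74 TPM in SHMO and 5.11 to 6.72 TPM in Ctrl pools. The genes differed: aanat2, the rhythmic enzyme of melatonin synthesis, had 3.65, 4.98 and 3.49 TPM in SBMO, 1.63, 1.57 and 1.08 TPM in SHMO and 4.24, 3.81 and 4.14 TPM in Ctrl pools, a log2(FC) of -1.53 in SHMO against Ctrl (adjusted p = 0.00441, limma). ASMT, the last enzyme of that pathway, had a log2(FC) of 0.66 in SHMO against Ctrl (adjusted p = 0.174). None of the marker genes in the 6 lists was at 0 in any pool.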

How the data were processed

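RNA of 9 pools of whole larvae was sequenced by the authors from stranded libraries. Trimmed reads were aligned to GRCz11 with STAR and quantified with RSEM, as the submitters' processing notes name them. The deposited values are TPM, given to 2 decimals. They keep no depth, so no counting error is given and no count test was run.

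An Ensembl name table gave symbols for 29201 of 32520 genes, in part those of the human ortholog. TPM values were divided by a median-ratio factor per pool (0.918 to 1.07), 0.1 was added and log2 taken, which shrinks the log2(FC) of low genes. Genes whose mean reached 1 TPM were kept. A limma fit held all 3 groups (lmFit, contrasts.fit and eBayes with trend; limma 3.58.1 in R 4.3.3; figures with matplotlib 3.10.9 in Python 3.11.15), adjusted by Benjamini-Hochberg within each of 3 comparisons.

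The 4 activators, the gene lists and the tests were chosen with earlier results of these data known. Named genes are the 4 activators, bmal2, CLOCK-3631, every listed clock gene called in at least 1 comparison, and, by likeness of profile, the 6 closest and 3 most opposed genes to the 4 activators and the 2 closest to each. Uncalled genes and markers outside this rule were named after their values were seen. Alternatives were another added constant, other filters and scalings, only the groups compared, a replicate block and leaving out each pool. Promoter motifs and protein sequences were not analysed here, and some listed genes are not reported here.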

Additional observations from a re-analysis of the deposited data

How the results depend on the processing

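In SBMO against Ctrl the sign held under each setting for the BMAL1 copies and npas2, while the CLOCK-11703 value crossed 0. In the comparisons with SHMO the pools of the 4 activators did not overlap, so nothing is read from the sign being kept there. CLOCK-11703 did not pass a filter at a mean of 5 TPM and has no value there. Under leave-one-out the log2(FC) ranges in SHMO against Ctrl were -1.76 to -1.46 for BMAL1-35732, -1.38 to -1.19 for BMAL1-6791, -1.59 to -0.99 for CLOCK-11703 and -1.74 to -1.37 for npas2. In SBMO against SHMO they were 1.22 to 1.35, 1.44 to 1.79, 1.06 to 1.44 and 1.14 to 1.49, and in SBMO against Ctrl -0.47 to -0.16, 0.14 to 0.48, -0.35 to 0.25 and -0.40 to -0.03, in the same order. With single pools left out, clock genes called numbered 16 to 22 in SHMO against Ctrl (23 with no filter on low values), 17 to 23 in SBMO against SHMO and 2 to 7 in SBMO against Ctrl, the last 2 without SBMO pool 2 or Ctrl pool 3 and 7 without SBMO pool 3 and also under quantile normalization. Changes of call for the named clock genes were counted once per result and setting, so the same result can count more than once. Under the other settings a call was lost 12 times and gained 7 times, several of the losses being dbpb in SBMO against Ctrl. With single pools left out a call was lost 49 times and gained 7 times, and 0 results changed sign with a call. Calls of PER3, CRY1-11583, cipcb, nr1d2a, NR1D2 and CSNK1D in SHMO against Ctrl, of dbpb and tefa in SBMO against Ctrl, and of PER3, cry3a and cipcb in SBMO against SHMO were lost without some pools, and the replicate block also ended the cipcb call in SBMO against SHMO (adjusted p = 0.0746).

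Counts over all genes were less stable. A filter at a mean of 5 TPM tested fewer genes and called 1032 in SHMO against Ctrl and 2297 in SBMO against Ctrl, against 1695 and 3772, and with only the 2 groups in the model 286 were called in SBMO against SHMO, against 871; the cause of the last was not tested. Leaving out single pools gave 417 to 2597 calls in SHMO against Ctrl, 1030 to 4264 in SBMO against Ctrl and 189 to 1284 between SBMO and SHMO. The first was highest without SHMO pool 1 and was 455 and 417 without SHMO pools 2 and 3 and 668, 725 and 769 without Ctrl pools 1, 2 and 3. The second was 1030 without SBMO pool 2, 2363 without Ctrl pool 1 and 1430 without Ctrl pool 3, and the third 189 without SBMO pool 2, 272, 544 and 328 without SHMO pools 1, 2 and 3, and 530 without Ctrl pool 2. Without further scaling, calls were 52.5% higher in SHMO against Ctrl and 29.5% in SBMO against SHMO, where the scaled values gave 40.2% and 40.1%, and the median log2(FC) of all genes in SHMO against Ctrl was 0.11 in place of 0.04. The replicate numbers did not pair the pools (correlations of deviations from -0.259 to 0.152), and a replicate block gave 1111 calls in SHMO against Ctrl. TPM keeps no depth, which limits what can be said of the precision of single values.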

Other observations

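Of the listed Nfil3 genes, nfil3-3 and nfil3-4 lay below the filter on low values and were not tested. nfil3-3 had 0.37 to 0.68 TPM in SBMO, 0.18 to 0.31 TPM in SHMO and 0.57 to 0.65 TPM in Ctrl pools, and nfil3-4 was listed at 0 in 7 of the 9 pools.

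Of 11 photoreceptor markers, 2 were called lower and 9 were not called in SHMO against Ctrl, with a median log2(FC) of 0.01. Over all genes 5.32% were called lower there. In SBMO against SHMO 4 of the markers were called higher, where 1.83% of all genes were. With so few genes, nothing is read from these counts. Among the markers called, GNAT1, the rod transducin subunit, fell in SHMO against Ctrl by 0.59 on the log2 scale. It rose in SBMO against SHMO by 0.73, each a call by limma. It had 110.92, 120.06 and 122.08 TPM in SBMO, 67.66, 77.50 and 80.13 TPM in SHMO and 115.94, 106.65 and 99.91 TPM in Ctrl pools. The cone gene GNAT2 had a log2(FC) of 0.15 in SHMO against Ctrl and was not called.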
